A study of Mus musculus with 16 samples.

Results

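The SOCS genes and other feedback inhibitors of JAK-STAT signaling were followed in B16F10 tumors treated with α-ketoglutarate (α-KG), an anti-PD1 antibody or both. The set held 9 genes named by symbol (Socs1, Socs2, Socs3, Cish, Ptpn1, Ptpn2, Ptpn6, Usp18 and Pias1), out of 18929 genes in the deposited table. All 9 were measured, and all 9 were among the 12850 genes tested. B16F10 is a mouse melanoma cell line, and the tumors grew from cells placed in the abdomen, on the right side, of C57BL/6 mice that were female and 7 to 8 weeks old. The groups, with 4 tumors each, were vehicle (Vehicle in the labels; corn oil and an IgG isotype control), anti-PD1 (PD1mAb), α-KG (alpha_KG; 100 mg/kg given into the peritoneum) and α-KG + anti-PD1 (aKG_PD1mAb). Treatment ran for 9 to 11 days, and RNA was taken from whole tumors, each an independent sample. Levels were given in FPKM, which divides the fragments of a gene by its transcript length and by the size of the library. In bulk tissue, a change in how many cells of a type are present and a change in RNA per cell cannot be told apart.

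When a cytokine binds its receptor, Janus kinases (JAKs) phosphorylate STAT proteins, which enter the nucleus and switch on genes. Some of those genes encode inhibitors of the same pathway, so the RNA of an inhibitor is often read as a trace of recent signaling. SOCS1 binds and blocks JAKs and is induced by interferon γ. SOCS3 binds the IL-6 receptor chain gp130 and the G-CSF receptor and is induced through STAT3. CIS, the product of Cish, and SOCS2 are induced mainly through STAT5. PTP1B (Ptpn1), TCPTP (Ptpn2) and SHP-1 (Ptpn6) are phosphatases that remove phosphate from receptors, JAKs or STATs, with SHP-1 found mostly in blood cells. USP18 restrains the type I interferon receptor, and PIAS1 binds STAT proteins in the nucleus.

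The promoters show which of these genes carry the letters of STAT or interferon elements close to their start. RefSeq windows on GRCm38.p6, from 250 bases before to 50 bases after a transcript start, were given for 6 of the 9 genes, and the 3 that held a match are printed so that they can be read beside the levels of these genes. The letters searched on both strands were TTCNNNGAA, the spacing of STAT-binding GAS elements, and a pair of GAAA repeats with 2 bases between them (GAAA, NN, GAAA), the core of interferon-stimulated response elements. Capitals mark the matches, and positions count from 1 at the transcript start. The windows lie at chr16:10785487-10785786 on the minus strand for Socs1, chr11:117969317-117969616 on the minus strand for Socs3 (around a start inside the annotated gene) and chr9:107296409-107296708 on the plus strand for Cish.
Socs1: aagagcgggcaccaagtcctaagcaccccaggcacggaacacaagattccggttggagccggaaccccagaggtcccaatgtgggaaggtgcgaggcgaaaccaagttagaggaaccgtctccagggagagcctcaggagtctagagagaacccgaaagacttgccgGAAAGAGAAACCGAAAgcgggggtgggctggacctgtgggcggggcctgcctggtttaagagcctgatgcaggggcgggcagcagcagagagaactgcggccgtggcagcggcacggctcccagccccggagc
Socs3: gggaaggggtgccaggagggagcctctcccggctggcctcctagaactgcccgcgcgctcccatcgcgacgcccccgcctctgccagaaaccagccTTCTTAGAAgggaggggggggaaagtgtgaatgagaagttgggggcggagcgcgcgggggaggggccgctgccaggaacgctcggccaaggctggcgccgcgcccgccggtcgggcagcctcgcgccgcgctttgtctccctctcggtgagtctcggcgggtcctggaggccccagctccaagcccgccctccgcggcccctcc
Cish: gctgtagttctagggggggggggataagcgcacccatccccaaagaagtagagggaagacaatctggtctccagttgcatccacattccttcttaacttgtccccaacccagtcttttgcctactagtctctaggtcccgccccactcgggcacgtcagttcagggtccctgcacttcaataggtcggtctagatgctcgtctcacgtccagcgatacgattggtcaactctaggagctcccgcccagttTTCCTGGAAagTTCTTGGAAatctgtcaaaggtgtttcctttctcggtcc
The Socs1 window held 2 overlapping matches to the GAAA pair, GAAAGAGAAA at position -83 and GAAACCGAAA at position -77. In Socs3 there was 1 match to TTCNNNGAA, TTCTTAGAA at position -154. The Cish window held 2, TTCCTGGAA at position 1 and TTCTTGGAA at position 12. The windows of Ptpn1 (also around a start inside the annotated gene), Ptpn6 and Pias1 held neither. Of 32851 such windows in the reference, 8.30% held TTCNNNGAA and 0.457% held it 2 or more times, while 3.44% held the GAAA pair and 0.225% held it 2 or more times. A match is a description of letters and shows no binding.

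In the tumors, the 9 inhibitors did not move as a block. Socs3 was highest under α-KG alone, Socs1 and Usp18 were highest under α-KG + anti-PD1, and Ptpn2 and Pias1 stayed within a narrow range. The plot of the 9 genes by tumor shows these patterns side by side.

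**Figure D1:**
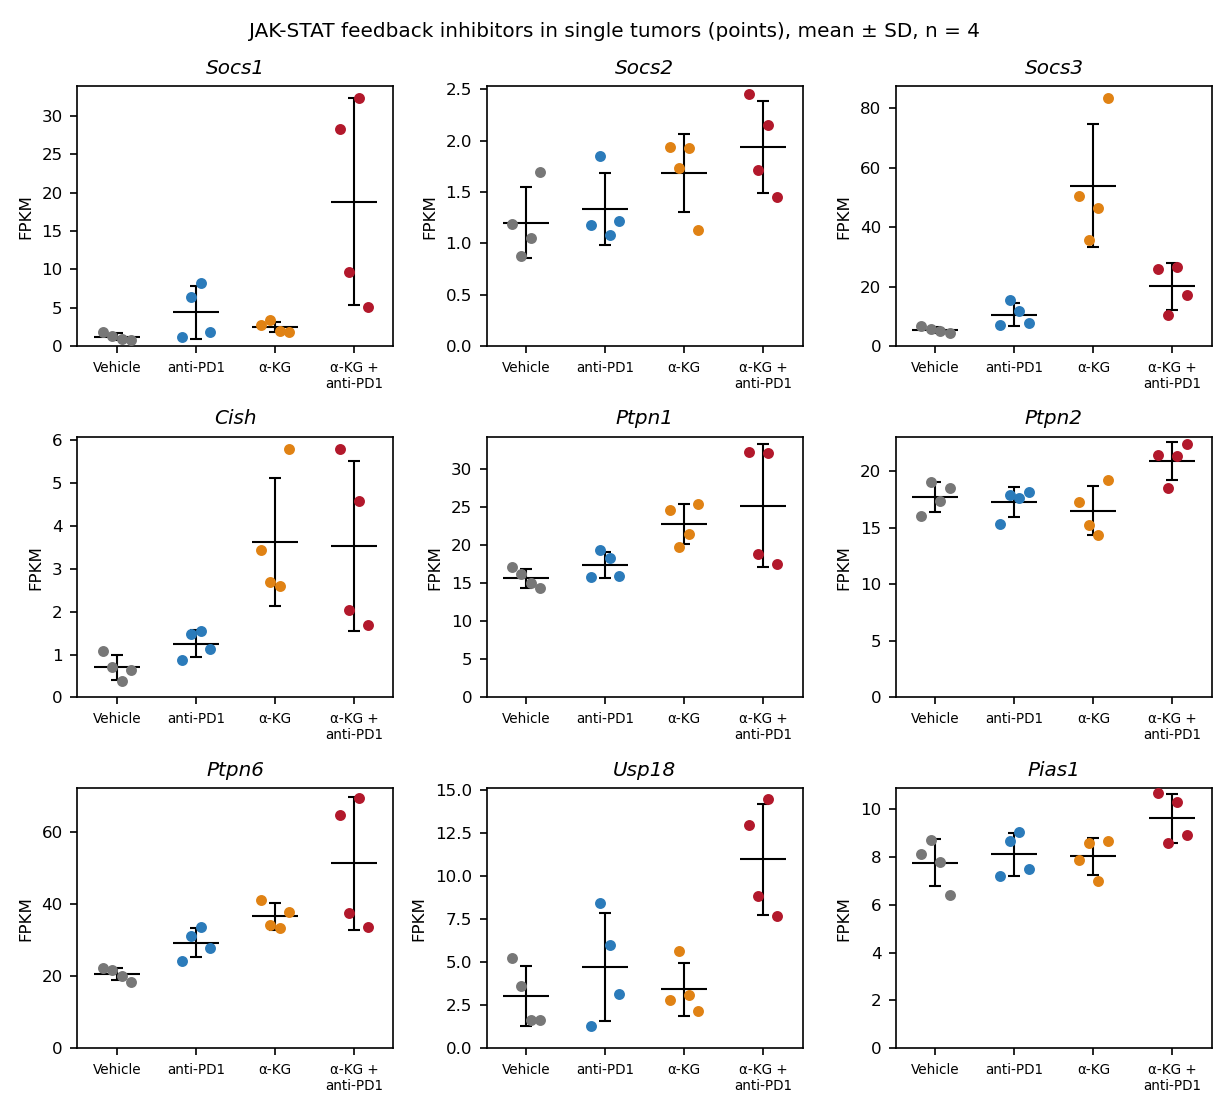
FPKM (vertical axes, each from 0) of the 9 inhibitors in single tumors (points, tumors 1 to 4 from left to right) by treatment, with the mean and SD (n = 4). Socs3 peaks in the α-KG tumors at 35.5 to 83.5 FPKM, whereas Socs1 and Usp18 peak in the α-KG + anti-PD1 tumors at 5.12 to 32.3 and 7.72 to 14.5 FPKM.

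Socs1, the interferon-induced JAK inhibitor, was low in all vehicle tumors, with 1.90, 1.36, 0.91 and 0.84 FPKM in tumors 1 to 4. Under α-KG + anti-PD1 it reached 28.3, 9.70, 32.3 and 5.12 FPKM, so that the lowest tumor of this group lay above the highest vehicle tumor. The anti-PD1 tumors split, with 1.16 and 1.84 FPKM in tumors 1 and 4, within or near the vehicle range, and 6.48 and 8.23 FPKM in tumors 2 and 3. With α-KG alone Socs1 was 2.76, 3.38, 1.95 and 1.92 FPKM, a narrow band just above the vehicle tumors. On log2(FPKM + 1), Socs1 rose by 2.84 ± 0.51 (SE, n = 4 against 4; adjusted p = 0.00072, limma) in α-KG + anti-PD1 against vehicle, a rise that passed the test in all 24 other settings and left-out tumors tried. Against α-KG alone the combination was higher by 2.20 ± 0.51 (adjusted p = 0.0041, limma), again in all 24. Against anti-PD1 alone it was higher by 1.81 ± 0.51 (adjusted p = 0.031, limma), with overlapping groups.

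Socs3, the STAT3-induced inhibitor of gp130 signaling, followed another order. Its levels were 6.93, 5.72, 5.04 and 4.63 FPKM in the vehicle tumors and 7.21, 15.6, 11.8 and 7.92 FPKM in the anti-PD1 tumors. With α-KG alone they were 50.6, 35.5, 46.4 and 83.5 FPKM, above every other tumor of the study. In α-KG + anti-PD1 they were 26.1, 10.5, 26.7 and 17.1 FPKM, between the α-KG and the vehicle tumors with no overlap with either. Socs3 was higher with α-KG than with vehicle by 3.01 ± 0.30 on log2(FPKM + 1) (adjusted p = 4.1e-06, limma) and higher than with anti-PD1 by 2.23 ± 0.30 (adjusted p = 0.00017, limma). The combination exceeded vehicle by 1.61 ± 0.30 (adjusted p = 0.00088, limma) and was lower than α-KG alone, at -1.40 ± 0.30 (adjusted p = 0.0027, limma). The difference between the combination and anti-PD1 alone was 0.83 with a 95% interval of 0.20 to 1.46 (adjusted p = 0.066, limma), so these neighbors in the order could not be separated; it passed without anti-PD1 tumor 2 (1.02, adjusted p = 0.029) or without α-KG + anti-PD1 tumor 2 (1.09, adjusted p = 0.031).

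Socs3 and Socs1 were highest in different arms, and their ratio of FPKM values, a description chosen after their levels were seen, differed widely. Socs3 exceeded Socs1 by 3.65 to 5.54 times in the vehicle tumors and by 10.5 to 43.5 times in the α-KG tumors. The ratio was 0.828 to 3.34 in α-KG + anti-PD1, where 2 of the 4 tumors held more Socs1 than Socs3. In the anti-PD1 tumors it ranged from 1.43 to 6.22.

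Cish, the STAT5-induced member, was low in the vehicle tumors at 1.08, 0.70, 0.39 and 0.63 FPKM and overlapped with them under anti-PD1 at 0.87, 1.48, 1.54 and 1.13 FPKM. It was raised to a like degree in both arms that held α-KG, at 3.43, 2.69, 2.61 and 5.81 FPKM with α-KG alone and 5.79, 2.04, 4.59 and 1.69 FPKM in the combination. Against vehicle, the log2 difference was 1.41 ± 0.27 for α-KG (adjusted p = 0.0022, limma) and 1.32 ± 0.27 for α-KG + anti-PD1 (adjusted p = 0.0016, limma), and both passed in all 24 alternatives. Between those arms the difference was -0.09 with an interval of -0.67 to 0.48. Its sign turned without α-KG tumor 4 (0.11) and without α-KG + anti-PD1 tumor 2 (0.06) or 4 (0.12). Socs2 stayed near 1 to 2 FPKM throughout, with 0.88 to 1.69 FPKM in vehicle, 1.08 to 1.85 under anti-PD1, 1.13 to 1.94 with α-KG and 1.45 to 2.45 FPKM in the combination. Its log2 difference between the combination and vehicle was 0.42 ± 0.15 (adjusted p = 0.036, limma), but the groups overlapped, the call was lost when any 1 of vehicle tumors 1, 2 or 3 or of combination tumors 1 or 3 was left out (0.34 to 0.42, adjusted p = 0.050 to 0.105), and quantile normalization turned it to -0.09.

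Ptpn6, the blood-cell phosphatase SHP-1, was lowest in vehicle and highest in the combination. It measured 22.4, 21.6, 19.9 and 18.4 FPKM in vehicle, 24.3, 31.1, 33.5 and 27.9 FPKM under anti-PD1, 41.2, 34.0, 33.2 and 37.7 FPKM in α-KG, and 64.6, 37.4, 69.3 and 33.6 FPKM in α-KG + anti-PD1. Every treated tumor lay above every vehicle tumor. Against vehicle, the log2 difference was 1.21 ± 0.19 in the combination (adjusted p = 0.00047, limma) and 0.80 ± 0.19 with α-KG (adjusted p = 0.0093, limma), both kept in all 24 alternatives. For anti-PD1 against vehicle it was 0.48 with an interval of 0.08 to 0.88 (adjusted p = 0.22, limma). Combination and α-KG differed by 0.41, with an interval of 0.01 to 0.81 (adjusted p = 0.096, limma), and this passed without combination tumor 2 (0.54, adjusted p = 0.045) or 4 (0.59, adjusted p = 0.016).

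Ptpn1, the phosphatase PTP1B, was 17.1, 16.2, 15.0 and 14.4 FPKM in vehicle and 15.9, 19.4, 18.3 and 15.96 FPKM in anti-PD1. The α-KG tumors, at 24.6, 19.7, 21.4 and 25.4 FPKM, stood above all of them. The combination tumors split into 32.3 and 32.1 FPKM (tumors 1 and 3) and 18.8 and 17.5 FPKM (tumors 2 and 4). Ptpn1 was higher in the combination than in vehicle by 0.60 ± 0.17 on the log2 scale (adjusted p = 0.0097, limma), but by 0.29 (adjusted p = 0.10) when each tumor was centered on its median. For α-KG against vehicle the difference was 0.51 ± 0.17 (adjusted p = 0.0502, limma), at the threshold, and it passed without vehicle tumor 1 (0.55, adjusted p = 0.047) or without any 1 combination tumor (0.51, adjusted p = 0.027 to 0.039).

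Ptpn6 and Ptpn1 kept a tight ratio within each group, again a description chosen after their levels were seen. There were 1.28 to 1.34 FPKM of Ptpn6 for each FPKM of Ptpn1 in the vehicle tumors, 1.53 to 1.83 under anti-PD1, 1.48 to 1.72 with α-KG and 1.91 to 2.16 in the combination. The pan-leukocyte gene Ptprc, which encodes CD45, was 0.65 to 4.31 FPKM in vehicle, 3.27 to 9.02 under anti-PD1, 16.5 to 23.5 with α-KG and 9.34 to 37.6 FPKM in the combination. Ptpn6 was therefore 5.19 to 30.6 times Ptprc in vehicle but 1.60 to 2.49 times with α-KG, so Ptpn6 changed far less than this leukocyte gene did. The part of leukocyte content in the Ptpn6 differences was not tested.

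Ptpn2, the phosphatase TCPTP, hardly varied. It lay at 16.03 to 18.99 FPKM in vehicle, 15.3 to 18.2 under anti-PD1, 14.4 to 19.2 with α-KG and 18.5 to 22.4 FPKM in the combination. The combination was higher than α-KG alone by 0.33 ± 0.09 (adjusted p = 0.013, limma), lost without α-KG tumor 3 (0.27, adjusted p = 0.0503) and on 2 other scalings (quantile normalization 0.13, median centering 0.06). Its difference from vehicle was 0.23 (adjusted p = 0.060, limma), which passed without α-KG tumor 3 or 4 (0.23, adjusted p = 0.049 and 0.044) or combination tumor 2 (0.28, adjusted p = 0.033) and turned to -0.08 on median centering. For α-KG against vehicle the log2 difference was -0.10, with an interval of -0.30 to 0.10.

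Usp18, the brake on the type I interferon receptor, was 5.26, 3.6, 1.62 and 1.63 FPKM in vehicle, 1.31, 8.47, 6.00 and 3.18 FPKM in anti-PD1 and 2.79, 5.64, 3.08 and 2.18 FPKM in α-KG, all overlapping. In the combination it was 12.97, 8.84, 14.5 and 7.72 FPKM, above all vehicle and α-KG tumors. The combination exceeded vehicle by 1.64 ± 0.39 on the log2 scale (adjusted p = 0.0040, limma) and α-KG by 1.46 ± 0.39 (adjusted p = 0.0097, limma), in all 24 alternatives each. With α-KG alone the difference from vehicle was 0.18 with an interval of -0.65 to 1.01, and it turned to -0.03 without α-KG tumor 2. Isg15, another gene of the type I interferon response, was 20.4 to 37.7 FPKM in vehicle and 26.8 to 48.4 in the combination, and did not pass the test (0.35, adjusted p = 0.25, limma).

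Pias1, which encodes a STAT-binding nuclear protein, had the narrowest range with Ptpn2, at 6.41 to 8.72 FPKM in vehicle, 7.19 to 9.06 under anti-PD1, 7.00 to 8.68 with α-KG and 8.59 to 10.7 FPKM in the combination. Its log2 difference of 0.28 ± 0.11 between combination and vehicle (adjusted p = 0.044, limma) rested on the scaling and on single tumors. It was -0.06 after quantile normalization and -0.03 after median centering, and it missed the threshold when any 1 of vehicle tumors 3 and 4, anti-PD1 tumor 4, α-KG tumor 1 or combination tumors 1 and 3 was left out (0.20 to 0.28, adjusted p = 0.052 to 0.16).

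**Figure D2:**
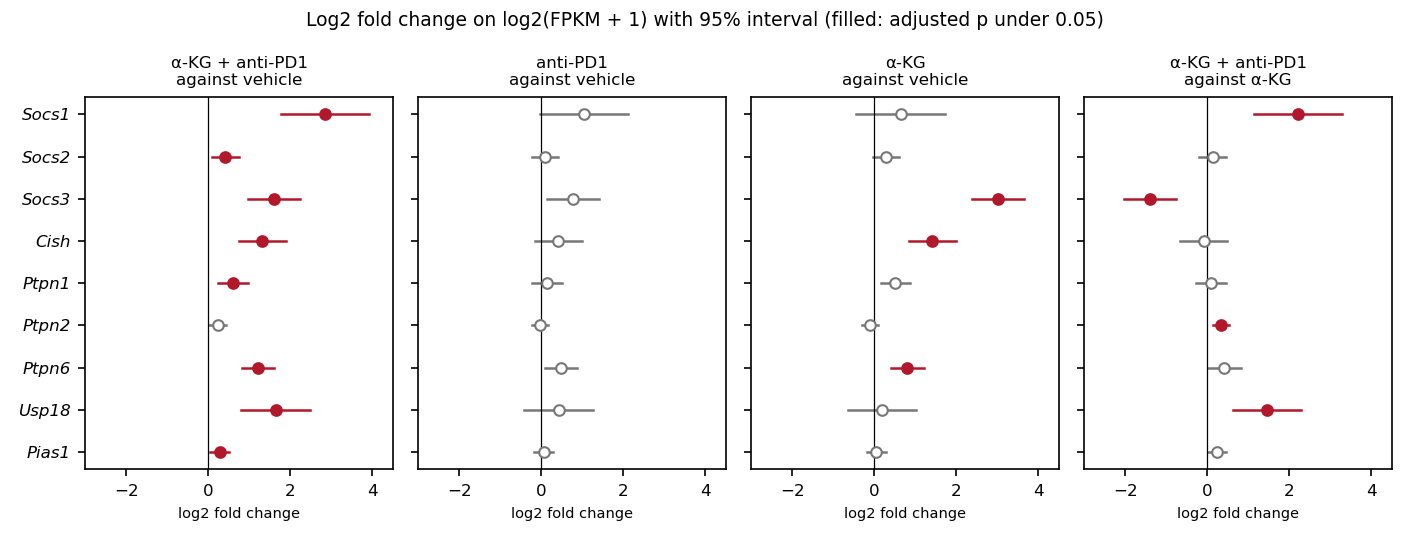
Log2 fold change on log2(FPKM + 1) (horizontal axis) of each inhibitor with its 95% interval in 4 of the comparisons, filled red where the adjusted p was under 0.05. Socs3 lies at 3.01 for α-KG against vehicle and at -1.40 for α-KG + anti-PD1 against α-KG, opposite to Socs1 at 2.20 in that last comparison.

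Counted by comparison, 8 of the 9 genes passed the test as higher in α-KG + anti-PD1 than in vehicle, where 34.9% of all genes tested did. The groups did not overlap for 6 of them (Socs1, Socs3, Cish, Ptpn1, Ptpn6 and Usp18), against 28.2% of all genes. The median log2 difference of the 9 was 1.21, beside 0.15 for all genes. That broad shift depended on the scaling. Median centering gave 2197 genes higher and 4803 lower in this comparison where the deposited values gave 4479 higher and 1348 lower, and the 9 genes then held 5 calls, all higher (Socs1, Socs3, Cish, Ptpn6 and Usp18). For α-KG against vehicle, 3 of 9 rose (Socs3, Cish and Ptpn6) beside 8.40% of all genes, and 5 did not overlap (these with Socs1 and Ptpn1) beside 10.1%. The Socs1 difference there was 0.64 with an interval of -0.44 to 1.72 (adjusted p = 0.43, limma).

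For anti-PD1 against vehicle, 0 of 9 passed in limma, beside 0.747% of all genes. At an unadjusted p under 0.05 there were 2 (Ptpn6 and Socs3), beside 2130 of all 12850 genes. These 2 were also the ones that did not overlap, beside 5.00% of all genes that lay wholly higher. The log2 differences were 0.78 for Socs3 (interval 0.15 to 1.41), 1.03 for Socs1 (interval -0.04 to 2.11), 0.41 for Cish (interval -0.16 to 0.99) and 0.42 for Usp18 (interval -0.41 to 1.26). In both Socs1 and Usp18, anti-PD1 tumors 1 and 4 lay below tumors 2 and 3.

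Between the combination and anti-PD1 alone, 4 of 9 passed as higher (Socs1, Cish, Ptpn6 and Usp18) beside 14.2% of all genes, and 3 did not overlap (Cish, Ptpn2 and Ptpn6) beside 13.6%. The log2 differences were 0.91 ± 0.27 for Cish (adjusted p = 0.037, limma), 0.73 ± 0.19 for Ptpn6 (adjusted p = 0.024, limma) and 1.21 ± 0.39 for Usp18 (adjusted p = 0.048, limma). All 4 calls were lost when any 1 of anti-PD1 tumors 1 or 4 or combination tumors 1 or 3 was left out. In those fits 0 of 9 passed in limma, beside 228 to 979 of all 12850 genes. At an unadjusted p under 0.05 there were 6 or 7 of 9, beside 3060 to 3905 of all genes. Socs1 was then at 1.45 to 1.58 (adjusted p = 0.079 to 0.12, limma), Cish at 0.68 to 0.88, Ptpn6 at 0.56 to 0.71 and Usp18 at 0.84 to 1.13. Usp18 also missed the threshold without vehicle tumors 2, 3 or 4, α-KG tumors 1, 3 or 4 or combination tumor 2 (1.21 to 1.30, adjusted p = 0.0502 to 0.067, limma). Of the 24 alternatives, Usp18 lost the call in 18, Cish in 9, Socs1 in 6 and Ptpn6 in 5. Both Usp18 and Cish lost it with no filter, quantile normalization, median centering or a replicate block. Usp18 lost it also at a pseudocount of 0.1 and after rescaling without red cell genes, and Socs1 with no filter. In the limma fit with only these 2 groups, 0 of the 9 and 0 of all 12850 genes passed, while 7 and 4077 had an unadjusted p under 0.05. Ptpn1 (0.46, adjusted p = 0.070) and Ptpn2 (0.26, adjusted p = 0.065) missed the threshold, and Ptpn1 passed without combination tumor 2 (0.58, adjusted p = 0.045) or 4 (0.61, adjusted p = 0.016).

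Against α-KG alone, 3 of 9 were higher in the combination (Socs1, Ptpn2 and Usp18) beside 31.8% of all genes, and 1 was lower (Socs3) beside 6.47%. Socs1 and Usp18 lay wholly above, beside 29.7% of all genes, and Socs3 wholly below, beside 5.68%. For α-KG against anti-PD1, 1 of 9 passed (Socs3) beside 2.80% of all genes, and 3 did not overlap (Cish, Ptpn1 and Socs3) beside 5.41%. Cish missed the threshold there (1.00 ± 0.27, adjusted p = 0.061, limma) and passed without combination tumor 1 (adjusted p = 0.030) or 4 (adjusted p = 0.034), while Ptpn1 differed by 0.37 (adjusted p = 0.31).

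An interaction term set what anti-PD1 did on top of α-KG against what it did on its own. For Socs3 the effect was 0.78 without α-KG and -1.40 with it, and the difference of -2.17 ± 0.42 passed (adjusted p = 0.0058, limma), as it did in all 23 alternatives. This was 1 of 9 genes beside 3.13% of all genes lower in that term. The differences of Socs1 (1.17, interval -0.35 to 2.69), Usp18 (1.03, interval -0.14 to 2.21), Cish (-0.50, interval -1.32 to 0.31) and Ptpn2 (0.37, interval 0.08 to 0.65) did not pass (adjusted p = 0.084 to 0.39, limma). Ptpn2 passed without α-KG tumor 4 (0.44, adjusted p = 0.043, limma), which makes 2 of 9 with Socs3, beside 1295 of all 12850 genes in either direction.

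Socs1 was next set against Ifng, the gene of interferon γ. Ifng was 0.79, 0.26, 0.00 and 0.11 FPKM in vehicle, 0.26, 1.63, 2.42 and 0.72 FPKM under anti-PD1, 0.27, 0.77, 0.18 and 0.06 FPKM in α-KG and 11.5, 4.37, 14.4 and 1.37 FPKM in α-KG + anti-PD1. Of the 24 pairs of tumors within groups, 23 were ordered alike by Ifng and by Socs1. Over the 16 tumors, Pearson's r on log2(FPKM + 1) was 0.973 and Spearman's rho was 0.876 (permutation test, two-sided; p = 1e-05 for r, the smallest that 100000 permutations can give, and p = 7.0e-05 for rho; adjusted over 3 relations 1.5e-05 and 0.000105). With combination tumors 1 and 3 left out, whose Ifng lay farthest from the median, r was 0.923. After the group means were taken out, r was 0.956 (exact permutation within groups, p = 9.04e-06, adjusted 2.71e-05), so tumors of 1 treatment also ordered together. Over 11577 genes with a mean of at least 1 FPKM, the 5 whose values were most like Socs1 across the 16 tumors were Gbp5 (r = 0.988), Trafd1 (0.987), Uba7 (0.986), Dtx3l (0.983) and Ptpn22 (0.980). Gbp5 encodes an interferon-induced GTPase and Uba7 the activating enzyme of ISG15.

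Socs3 was then set against Stat3, the gene of the STAT that drives it. Stat3 ranged from 35.1 to 42.9 FPKM in vehicle, 42.7 to 55.3 under anti-PD1, 41.5 to 56.8 with α-KG and 47.7 to 74.1 FPKM in the combination. Across the 16 tumors r was 0.497 (permutation p = 0.0503, two-sided, adjusted 0.0503) and rho 0.562 (permutation p = 0.0256), with r 0.498 when combination tumors 1 and 3, the extremes of Stat3, were left out. The pooled r passed without α-KG tumor 2 (0.577, permutation p = 0.025) or 3 (0.613, permutation p = 0.016). With group means taken out and the 4 groups pooled, r was 0.813 (exact permutation within groups, p = 0.0033, adjusted 0.0049). The vehicle tumors did not follow it: vehicle tumor 1 had the highest Socs3 and the lowest Stat3 of its group, and r was 0.919 without it. In the α-KG tumors the level of Socs3 was 0.852 to 1.47 times that of Stat3, against 0.115 to 0.197 times in vehicle, 0.169 to 0.282 in anti-PD1 and 0.220 to 0.385 in the combination.

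**Figure D3:**
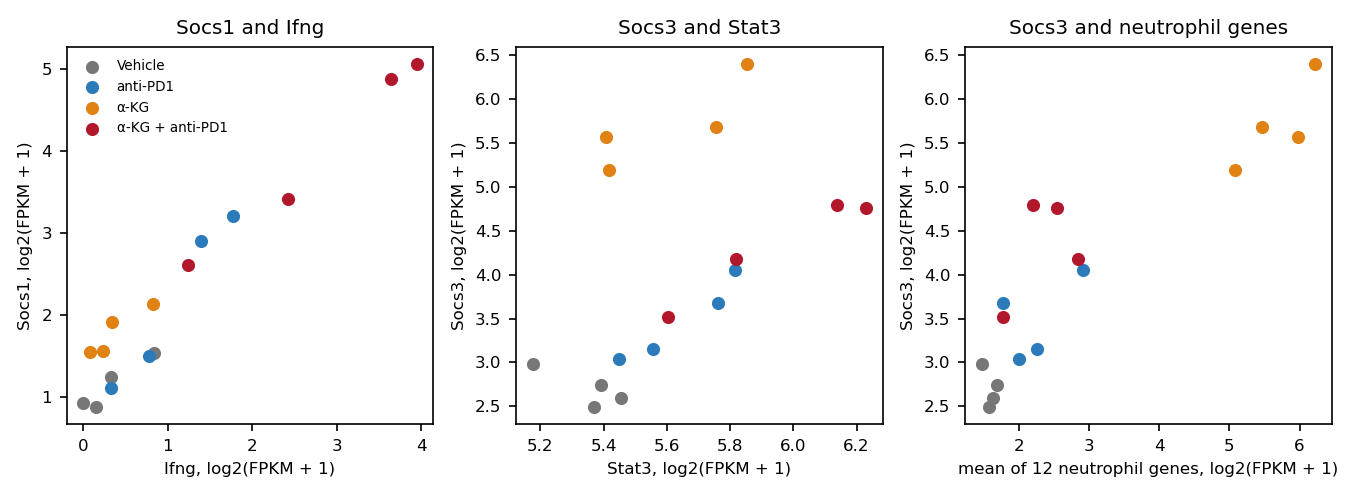
Socs1 against Ifng, Socs3 against Stat3 and Socs3 against the mean of 12 neutrophil genes, all on log2(FPKM + 1), 1 point per tumor colored by treatment. Socs1 rises with Ifng over all tumors (r = 0.973), and whether the relation differs between groups was not tested. The 4 α-KG tumors lie above the vehicle tumors in Socs1 (1.92 to 3.38 against 0.84 to 1.90 FPKM), a difference that did not pass in limma. Ifng in these α-KG tumors lies inside the vehicle range (0.06 to 0.77 against 0.00 to 0.79 FPKM). The 4 α-KG tumors lie above the other 12 in Socs3 at Stat3 levels inside the range of the others. The 4 α-KG tumors also stand apart on the neutrophil axis, at 5.08 or more against 2.92 or less in the other 12 tumors.

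Neutrophil genes moved with Socs3 in the α-KG arm. The summed level of 12 neutrophil markers was 30.9 to 45.1 FPKM in vehicle, 43.3 to 141 under anti-PD1, 44.6 to 138 in the combination and 1223 to 3234 FPKM in α-KG. All 12 passed as higher in α-KG than in vehicle (median 4.08, beside -0.04 for all genes), where 8.4% of all genes did. All 12 were lower in the combination than in α-KG alone (median -2.98, beside 0.16 for all genes) and lower in the interaction term (median -4.11, beside 0.15), the 2 tests in which Socs3 was also lower. Of all genes, 6.47% and 3.13% were lower in these 2 tests. Ly6g, a defining marker of mouse neutrophils, was at 0 in all 4 vehicle tumors and 1.57 to 9.16 FPKM in the α-KG tumors. It was at most 0.34 FPKM in the anti-PD1 and combination tumors. Ly6g thus entered the test only through the α-KG tumors, and its calls add no weight to these counts. Since the tumors fell into 2 clusters on this list, no correlation over all 16 is given. In the 12 tumors outside the α-KG group, a subset set after the data were seen, r was 0.720 (permutation p = 0.0093, two-sided) and rho 0.790 (permutation p = 0.0032), with r 0.753 without the 2 farthest tumors. Those 12 still span 3 treatments. Within groups over the 16 tumors, r was 0.589 (exact permutation, p = 0.067, adjusted 0.067), and it passed without anti-PD1 tumor 3 (0.694, p = 0.038) or without combination tumor 3 (0.671, p = 0.049) or 4 (0.686, p = 0.031). The combination tumors held 10.5 to 26.7 FPKM of Socs3 with neutrophil sums in the range of the anti-PD1 tumors. The part of neutrophils in the Socs3 differences was not tested.

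Cytokines that signal through STAT3 and known STAT3-responsive genes were read from lists. Osm, the gp130 cytokine oncostatin M, was 0.46 to 1.47 FPKM in vehicle, 1.44 to 3.35 under anti-PD1, 24.5 to 57.6 with α-KG and 1.30 to 3.42 FPKM in the combination. Csf3, which encodes G-CSF, was at most 0.25 FPKM in vehicle and anti-PD1, 3.77 to 15.2 FPKM in α-KG and at most 1.27 FPKM in the combination. Il10 was 1.07 to 5.07 FPKM with α-KG and 0.72 to 1.69 FPKM in the combination, with 0.57 FPKM or less elsewhere. Il6 did not reach 1 FPKM in any tumor, with 0.30 to 0.72 FPKM in α-KG. The list of cytokines and receptors that activate STAT3 joined the gp130 family to genes of G-CSF, IL-10 and their receptors and of the leptin receptor, which act without gp130. Of its 17 genes 14 were tested, and 7 were higher and 0 lower in α-KG than in vehicle (median 0.76, beside -0.04 for all genes), where 8.4% of all genes were higher. Of these 7, Osm and Il6ra belong to the gp130 family, and the others were Csf3, its receptor gene Csf3r, Il10, Il10ra and Il10rb. Csf3r is itself a gene of neutrophils. In the combination against vehicle, 10 of the 14 were higher and 0 lower (median 0.72), beside 34.9% of all genes higher. In the interaction term 5 of the 14 were lower, beside 3.13% of all genes. Osm (-4.24, adjusted p = 2.0e-05, limma) was the gp130 family member among them, and the others were Csf3 (-2.95, adjusted p = 0.00067, limma), Csf3r, Il10 and Il10rb.

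**Figure D4:**
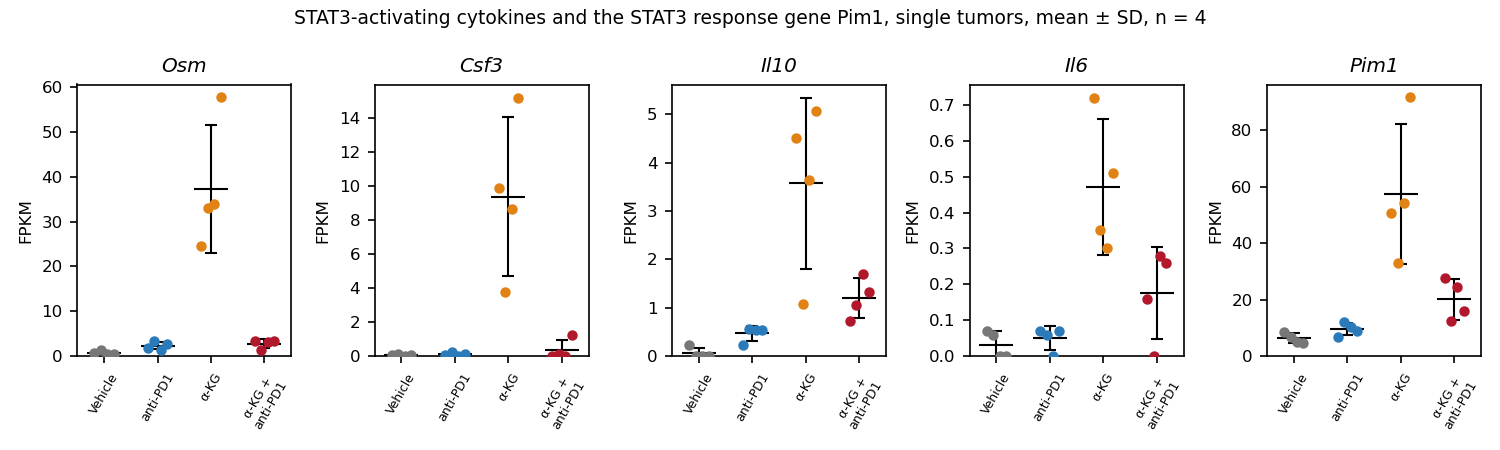
FPKM (vertical axes, each from 0) of Osm, Csf3, Il10 and Il6, cytokines that activate STAT3, and of the STAT3-responsive kinase gene Pim1 in single tumors (points), with mean and SD (n = 4). Osm reaches 24.5 to 57.6 FPKM in the α-KG tumors and at most 3.42 FPKM in all other tumors.

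The STAT3 response list held 13 genes, Socs3 among them. With α-KG against vehicle, 11 of 13 were higher and 0 lower (median 2.62, beside -0.04 for all genes), where 8.4% of all genes were higher. The largest differences were Saa3 (6.90), Lcn2 (6.49), Il1rn (5.12) and Socs3. Saa3 and Lcn2 encode acute-phase proteins and Il1rn the IL-1 receptor antagonist, and Lcn2 and Il1rn are also made by neutrophils. In the combination against vehicle, 10 of 13 were higher and 0 lower (median 1.39, beside 0.15 for all genes), where 34.9% of all genes were higher. In the combination against α-KG, 7 were lower and 0 higher (median -0.95, beside 0.16 for all genes), where 6.47% of all genes were lower. In the interaction term 9 of 13 were lower, beside 3.13% of all genes. Pim1, a kinase gene driven by STAT3 and STAT5, had the pattern most like Socs3 over the 16 tumors (r = 0.990), followed by Ier5 (0.987), Cd300ld (0.987), Samsn1 (0.984) and Tarm1 (0.983). Pim1 was 4.79 to 8.58 FPKM in vehicle, 33.2 to 91.8 with α-KG and 12.4 to 27.8 FPKM in the combination. These correlations describe 16 tumors that share 4 treatments.

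Receptors that use STAT5 were compared beside Cish. Of 18 STAT5 cytokine and receptor genes, 14 were tested. Against vehicle, 7 were higher in α-KG (median 1.07), beside 8.4% of all genes. In the combination 11 were higher (median 1.49), beside 34.9% of all genes, with 0 lower in either arm. Csf2rb, the shared chain of the GM-CSF, IL-3 and IL-5 receptors, was 0.68 to 2.47 FPKM in vehicle, 15.5 to 32.8 with α-KG and 5.10 to 14.9 FPKM in the combination. Il2rb, the IL-2 receptor β chain of T and NK cells, was 0.17 to 2.85 FPKM in vehicle, 1.19 to 8.36 with α-KG and 9.79 to 77.3 FPKM in the combination. Cish was raised in both arms, whereas Csf2rb was lower (-1.08) and Il2rb higher (3.23) in the combination than in α-KG. The genes most like Cish were Sema4d (r = 0.981), Bcl2l11 (0.978), Gmfg (0.975), Gpr132 (0.973) and Chd7 (0.973). Of the list of 12 T cell markers, whose summed level was 2.91 to 13.7 FPKM in vehicle, 9.43 to 48.5 with α-KG and 32.2 to 260 in the combination, all 12 were higher in the combination than in vehicle. The part of T cells in the Socs1, Usp18 and Cish differences was not tested.

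Interferon response genes moved in the arm where Socs1 and Usp18 were highest. Of all genes tested, 34.9% were higher than vehicle in the combination and 8.4% with α-KG alone. Of the interferon γ response list, 13 of 14 genes were tested, and all 13 were higher in the combination than in vehicle (median 3.02), with Igtp (3.95), Gbp2 (3.89), Psmb8 (3.65) and Cxcl9 (3.44) leading. In α-KG against vehicle 1 of 13 was higher (Cd274, the gene of PD-L1), near the share of all genes. The type I interferon list, which includes Usp18, had 12 genes tested, of which 10 were higher in the combination than in vehicle (median 1.60). With α-KG alone 1 of the 12 was higher, again near the share of all genes. The genes most like Usp18 were Parp9 (r = 0.977), Cmpk2 (0.975), Ifi203 (0.974), Filip1l (0.973) and Ifit3 (0.972). Of the 11 JAK and STAT genes, all were higher in the combination than in vehicle (median 0.80), led by Stat2 (2.18), whereas median centering and quantile normalization left 8 and 9. With α-KG, 2 of 11 were higher, Jak2 (0.74) and Stat5a (0.43).

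Other inhibitors and the subunits of the SOCS-box ubiquitin ligase had a lower median change in the combination than the 9 inhibitors, although single genes rose. Of 15 such genes (Socs4 to Socs7, Pias2 to Pias4, Ptpn11, Ptprc, Ptprt, Sh2b3, Cul5, Rnf7, Elob and Eloc), 14 were tested. In the combination against vehicle 3 were higher (Ptprc 3.01, Socs7 0.69 and Pias3 0.50) and 2 lower (Elob -0.31 and Eloc -0.28). Of all 12850 genes, 34.9% were higher and 1348 lower. The median of the list was 0.15, equal to that of all genes, beside 1.21 for the 9 inhibitors. The split was 1 higher and 5 lower after quantile normalization and 6 higher and 0 lower after rescaling to equal sums. With α-KG against vehicle 2 were higher (Ptprc 2.91 and Socs7 0.69), beside 8.4% of all genes, and 1 lower (Eloc -0.23), beside 968 of all 12850.

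Finally, the 9 inhibitors were compared with each other within groups. Of 36 pairs, 17 correlated across the 16 tumors after the group means were taken out (exact permutation within groups, adjusted p under 0.05 over the 36), and all 17 were positive. The closest pair was Ptpn1 and Ptpn6 (r = 0.960, exact permutation p = 0.00069, adjusted p = 0.0076), followed by Cish and Ptpn1 (0.915) and Socs1 and Ptpn6 (0.879). None of the 8 pairs of Socs2 or of the 8 pairs of Ptpn2 passed. After median centering 1 pair passed (Socs1 and Usp18) and after quantile normalization 2 (Socs1 with Ptpn6 and with Usp18), while rescaling to equal sums gave 20. Among those 20 were Ptpn2 with Socs3 (r = 0.702, exact permutation, adjusted p = 0.023) and with Pias1 (0.671, adjusted p = 0.018). The count fell to 8 without vehicle tumor 4, to 6, 9, 8 and 9 without anti-PD1 tumors 1 to 4, and to 9 and 10 without combination tumors 1 and 3.

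**Figure D5:**
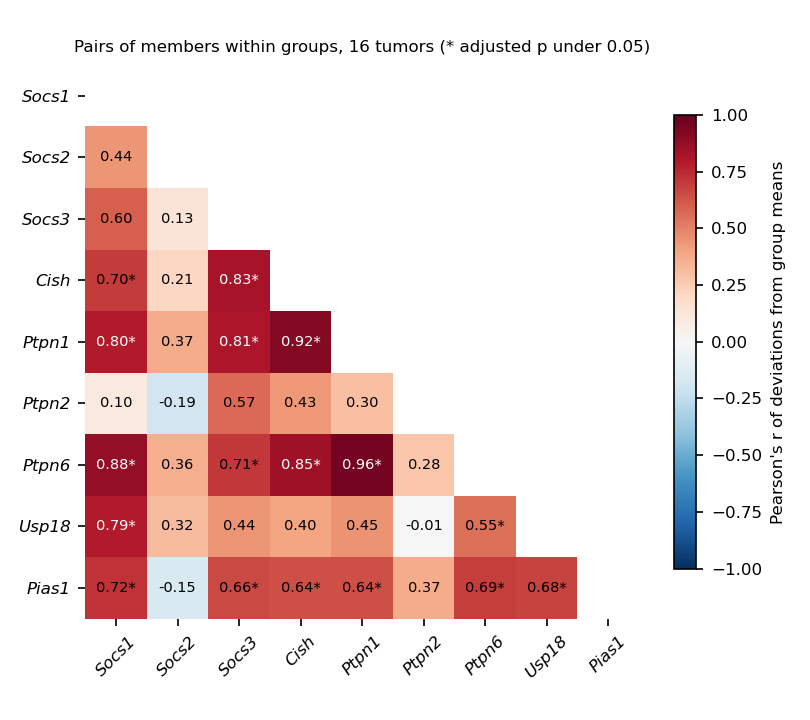
Pearson's r between pairs of the 9 inhibitors after the group means were taken out (16 tumors, log2(FPKM + 1)), with color from -1 to 1 and an asterisk where the adjusted exact permutation p was under 0.05. Ptpn1 and Ptpn6 have the highest value (0.96), and Socs2 and Ptpn2 have no asterisk in any pair.

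The genes most like Ptpn6 were Pik3cg (r = 0.989), Notch1 (0.983), Arhgap4 (0.982), Marchf1 (0.981) and Ptk2b (0.981), and those most like Socs2 were Auh (0.822), Tppp3 (0.817), Ypel3 (0.790), Glrx2 (0.783) and Dusp2 (0.781). Across the series, summed FPKM was 514180 to 527812 in the combination and 549740 to 654772 in the other tumors, and hemoglobin genes took 2.09 to 2.23% of it in the combination but 4.23 to 22.2% elsewhere. The 7 melanocyte markers, as labeled for melanoma, summed to 7845 to 10572 FPKM in every tumor, and 2 were lower and 0 higher in the combination than in vehicle. Macrophage markers rose from 99.0 to 493 FPKM in vehicle to 684 to 1646 FPKM in the combination, where 9 of 9 were higher, and 9 of 10 pan-leukocyte markers were higher in each arm with α-KG. All 7 erythroid markers tested were lower in the combination than in vehicle (median -2.95). Of all genes, 34.9% were higher than vehicle in the combination and 8.4% with α-KG, and 1348 of all 12850 were lower in the combination. The part of this composition in the differences above was not tested.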

How the data were processed

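The deposited table held 1 FPKM value per gene and tumor, made by the authors and given to 2 decimals. HISAT, Bowtie2 and mm10 are named in the submitters' processing notes. The roles and versions of these tools, the program that computed FPKM, and whether counting used strand are not given in the sources used here, so reads of genes that overlap Usp18, Ptpn6 or Cish on the other strand may be included. FPKM without read counts leaves the depth unknown. No count test was run.

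Values were taken as log2(FPKM + 1), so fold changes of low genes are understated. The 12850 genes that reached 0.5 FPKM in 4 of the 16 tumors entered limma 3.58.1 in R 4.3.3, with 1 mean per group, a mean-variance trend and Benjamini-Hochberg adjustment over all genes tested, threshold 0.05. The 6 comparisons between groups and the interaction shared this fit, and comparisons share tumors. Relations used two-sided permutation tests written with numpy 2.4.6, with ranks from scipy 1.17.1. Scripts were tested on simulated data. The text names all 9 members, up to 4 genes per list with the largest change, known inducers, and the 5 genes most like a member. The members and lists were chosen with earlier results of these data known. Alternatives were another pseudocount (0.1), no filter, 4 other scalings, only the 2 groups compared, a replicate block and leaving out each tumor.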

Additional observations from a re-analysis of the deposited data

Results flagged for a closer look

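The Socs3 response to anti-PD1 differed with and without α-KG. On log2(FPKM + 1), the difference of the 2 effects was -2.17 ± 0.42 (SE; adjusted p = 0.0058, limma). Without α-KG, the 4 anti-PD1 tumors all lay above the 4 vehicle tumors in Socs3, at the nearest by 7.21 against 6.93 FPKM, as did 5% of all genes. That difference did not pass by itself (0.59 to 0.92 over all settings, adjusted p = 0.11 to 0.52, limma). With α-KG, the 4 tumors that also had anti-PD1 all lay below the 4 that did not, as did 5.68% of all genes. The 12 neutrophil markers moved with Socs3: all 12 were lower in the same difference of effects (median -4.11, beside 0.15 for all genes) and in the combination against α-KG alone (median -2.98, beside 0.16). Among them, Ly6g entered the test only through the α-KG tumors. The part of these markers in the Socs3 result was not tested. No tumor stood apart from the other 3 of its group by Dixon's criterion in any of the 48 sets of 4 values examined.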

How the results depend on the processing

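The log2 differences given above were recomputed under 24 alternatives (23 for the interaction), 1003 values in all for 42 differences; 902 kept their direction and side of the threshold, 60 lost the call, 32 gained one and 9 changed sign. Those that changed sign were, against vehicle in the combination, Socs2 (-0.093) and Pias1 (-0.062) after quantile normalization and Ptpn2 (-0.085) and Pias1 (-0.032) after median centering; Usp18 in α-KG against vehicle, at -0.035 to 0.43 over left-out tumors; and Cish in the combination against α-KG, at 0.076 after rescaling to equal sums and at -0.32 to 0.12 over left-out tumors. The cause was not tested. Members called moved as follows, with the calls over all 12850 genes (18924 without the filter) in parentheses. For the combination against vehicle the main fit gave 8 (5827). There were 5 after median centering (7000), 9 after rescaling to equal sums (6544) and 6 to 9 over left-out tumors (4265 to 6644). There were 6 without the filter (5995), after quantile normalization (6235), with only those 2 groups (4866) or with a replicate block (5430). For α-KG against vehicle the main fit gave 3 (2048). There were 4 at a pseudocount of 0.1 (2203), after quantile normalization (2683) or median centering (2434), 5 with only those 2 groups (1734) and 3 to 4 over left-out tumors (1256 to 2621). For the combination against anti-PD1 the main fit gave 4 (1987). There were 9 after rescaling to equal sums (4234), and 3 after rescaling without red cell genes (1697) or at a pseudocount of 0.1 (1489). There were 2 after quantile normalization (1803), median centering (2770) or with a replicate block (1533), and 1 without the filter (1395). With only the 2 groups there were 0 (0), and over left-out tumors 0 to 5 (228 to 2937). For the combination against α-KG the main fit gave 4 (4918). There were 6 after rescaling to equal sums (7197) or rescaling without red cell genes (5721), 3 after quantile normalization (4043) or median centering (4885), and 3 to 5 over left-out tumors (3459 to 5207). For α-KG against anti-PD1 the main fit gave 1 (406). There were 2 after quantile normalization (480), median centering (501) or with only the 2 groups (455), and 1 to 2 over left-out tumors (275 to 419). In the interaction, where the main fit gave 1 (1429), there were 2 after rescaling to equal sums (2394) and 1 to 2 over left-out tumors (699 to 2362).

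Over all genes, the calls of anti-PD1 against vehicle (96) were 312 at a pseudocount of 0.1, 5 without the filter, 201 after median centering, 29 after rescaling, 0 with only the 2 groups or a replicate block, and 0 to 885 over left-out tumors. Rescaling gave 1246 in α-KG against vehicle (1256 to 2621 over left-out tumors), 4234 in the combination against anti-PD1 (0 with only the 2 groups, 228 to 2937 over left-out tumors) and 2394 in the interaction (699 to 2362). The median of all genes in the combination against vehicle was 0.15, and -0.11, -0.16, 0.34 and 0.18 after quantile normalization, median centering, rescaling, and rescaling without red cell genes. Socs3 and Stat3 passed at a pseudocount of 0.1 (r = 0.504) and as rho (0.562), and ranged from 0.452 to 0.613 over left-out tumors. Within groups, Socs3 and the neutrophil list passed after rescaling (0.623) and after rescaling without red cell genes (0.622), with 0.457 to 0.694 over left-out tumors. Pairs of the 9 genes that correlated within groups numbered 2, 1 and 6 to 19 after quantile normalization, median centering and over left-out tumors.

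Replicate numbers do not pair the tumors. Over 24 pairs of tumors with the same number, deviations from group means correlated at -0.64 to 0.41, 9 of them over 0.1, and 3 of 16 tumors correlated best with their own number. With the number as a replicate block, members called stayed at 3 in α-KG against vehicle, beside 1657 of all 12850 genes. They were 6 in the combination against vehicle, beside 5430 of all genes, where Socs2 and Pias1 missed the threshold.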
